A study of Homo sapiens with 6 samples.

Results

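The nuclear-encoded subunits of the respiratory chain and ATP synthase were compared between wild-type H1155 cells (WT) and H1155 cells labelled GFI1-KO. The members were all protein-coding genes outside the mitochondrial chromosome whose symbols begin with NDUFA, NDUFB, NDUFC, NDUFS or NDUFV (complex I), are SDHA to SDHD (complex II), begin with UQCR or are CYC1 (complex III), begin with COX4 to COX8 (complex IV) or begin with ATP5 (ATP synthase), with assembly factors left out. This gave 92 of the 58735 genes in the count table, of which 40 belong to complex I, 4 to complex II, 10 to complex III, 17 to complex IV and 21 to ATP synthase. H1155 is an established human line of neuroendocrine large cell lung cancer that grows in suspension, and GFI1 is a zinc-finger transcriptional repressor. RNA was sequenced from 3 libraries of untreated WT cells and 3 of GFI1-KO cells, both grown in DMEM with serum. The study reports that after the deletion H1155 cells grew attached as single cells and proliferated less. Growth form and growth rate therefore cannot be told apart from the label. The study made the deletion with Cas9 and guides against the GFI1 promoter region, sorted the cells and raised clones, so the GFI1-KO libraries may stem from 1 clone, and the deletion cannot be told apart from the history of that clone. The labels do not say that the replicates were separate cultures, so p-values measure the spread between these 3 and 3 samples, which may be technical.

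Complex I takes electrons from NADH and complex II takes them from succinate, and both pass them to ubiquinone. Complex III hands them to cytochrome c, complex IV uses them to reduce oxygen, and the protons pumped by complexes I, III and IV drive ATP synthase. A few hydrophobic subunits are made inside the mitochondrion from its own DNA, and all others, described here, are encoded in the nucleus and imported.

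The targeted gene did not go with the label. GFI1 (ENSG00000162676, chromosome 1, 92474762 to 92486876, GRCh38) had normalized counts of 157, 117 and 131 in WT replicates 1, 2 and 3, and 166, 178 and 160.0 in the libraries labelled GFI1-KO. The values gave a log2 fold change 0.31 ± 0.12 (SE), edgeR adjusted p = 0.0273, in the direction opposite to a loss, and this call was lost without WT replicate 2 (0.21, edgeR adjusted p = 0.147), without WT replicate 3 (0.28, edgeR adjusted p = 0.0633) or without GFI1-KO replicate 2 (0.27, edgeR adjusted p = 0.0927). It was lost too in DESeq2 (adjusted p = 0.072), with upper-quartile factors (edgeR adjusted p = 0.0545) and after a correction for length and GC content described below (0.18, edgeR adjusted p = 0.219). Counts over the gene body do not show the edit itself, made in the promoter region, and they showed no loss of GFI1 transcript. The paper probed GFI1 protein by immunoblot in H1155 and GFI1-KO H1155 cells, and RNA counts do not measure protein. The group is called by its label below, and where GFI1-KO stands alone it means the libraries so labelled. Library totals ran from 14882914 to 17692882 counts. All 12 neuroendocrine markers examined were above the count filter, 7 higher and 5 lower in the labelled GFI1-KO libraries. Summed leukocyte markers were at 3.67 to 4.78 counts per 1e6 library counts (CPM) in all 6 libraries, with CD3E at 0; fibroblast markers summed to 191 to 196 CPM in WT and 134 to 139 in GFI1-KO, with DCN at 0, and endothelial markers, led by PECAM1, to 27.1 to 30.4 and 13.3 to 14.9 CPM. Of the 5 fibroblast markers tested 2 were higher, among them COL3A1 with 2.49 ± 0.721 (SD, n = 3) normalized counts in WT and 139 ± 18.8 in GFI1-KO, and 3 lower, among them PDGFRB with 141 ± 1.41 and 14.8 ± 1.17. The part of these marker differences in the results below was not tested.

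Of the 92 members, 85 passed the filter on low counts and were tested. Of these, 55 were higher and 16 lower in the labelled GFI1-KO libraries, and 14 passed the test in neither direction (edgeR quasi-likelihood test, Benjamini-Hochberg adjusted over all 17514 genes tested, threshold 0.05). In the same comparison 36.5% of all tested genes were higher and 35.9% lower, so that 64.7% of the tested members stood in the higher group against 36.5% of all genes, and 18.8% in the lower group against 35.9%. The median log2 fold change was 0.32 over the tested members and 4.95e-04 over all tested genes. In 55 of the tested members all 3 labelled GFI1-KO libraries were above all 3 WT libraries, against 37.5% of all tested genes. At least 2-fold higher were 13 members, against 10.2% of all tested genes. In bulk RNA, fewer cells expressing a gene and less RNA per cell cannot be told apart.

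**Figure D1:**
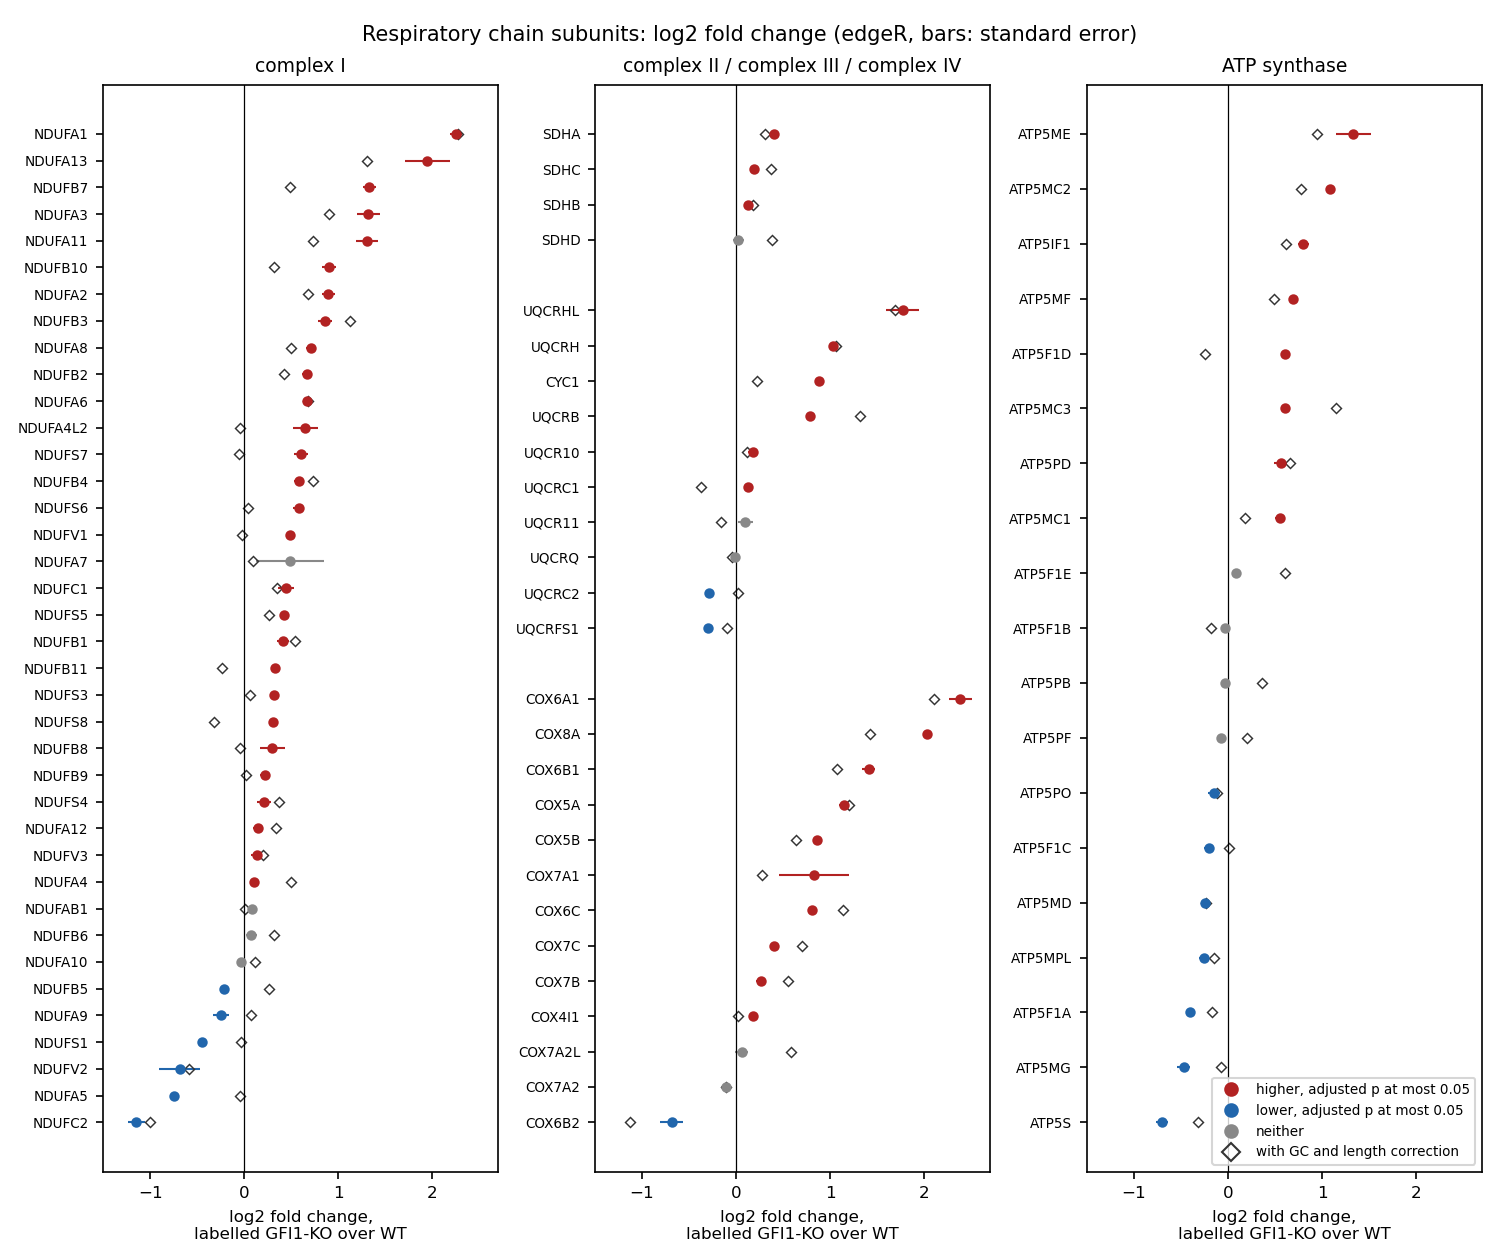
Log2 fold change (labelled GFI1-KO over WT; x axis) of 84 of the 85 tested members, listed by complex on the y axis and ordered by size. Filled points are the edgeR values with their standard errors, red for higher (55), blue for lower (16) and grey for neither (13). Open diamonds are the values after the correction for GC content and gene length, which moved many points toward or across 0. Others, such as UQCRB (0.78 to 1.32) and ATP5MC3 (0.60 to 1.14), moved away from 0.

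Complex IV had the highest median log2 fold change of the 5 complexes, 0.81, with 10 of its 13 tested subunits higher and 1 lower. Complex I had 28 of 39 higher and 6 lower, with a median of 0.41. In complex III 6 of 10 were higher and 2 lower (median 0.16). In complex II 3 of 4 were higher and 0 lower (median 0.16), and 0 were lower also at an unadjusted p under 0.05 in edgeR and by DESeq2. ATP synthase was split, at 8 of 19 higher and 7 lower (median -0.03). These shares stand against 36.5% higher and 35.9% lower among all tested genes.

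Summed over its genes, complex IV made up 1076, 1082 and 1061 CPM in WT replicates 1, 2 and 3, and 1573, 1612 and 1575 in the labelled GFI1-KO libraries, a ratio of means of 1.48. The GFI1-KO sum was 1.28 times the WT sum for complex III (1234 ± 8.80 to 1575 ± 23.9, SD, n = 3), 1.19 times for complex I (2425 ± 2.68 to 2878 ± 57.5) and 1.16 times for complex II (323 ± 6.45 to 373 ± 6.48). For ATP synthase it was 2753 ± 36.6 in WT and 2795 ± 22.7 in GFI1-KO, and the libraries of the groups overlapped. Per count of ATP synthase there were 0.390 ± 0.00887 counts of complex IV in WT and 0.568 ± 0.00514 in GFI1-KO, with no overlap between the groups. A sum is set by its most abundant genes, and no test was run on it.

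**Figure D2:**
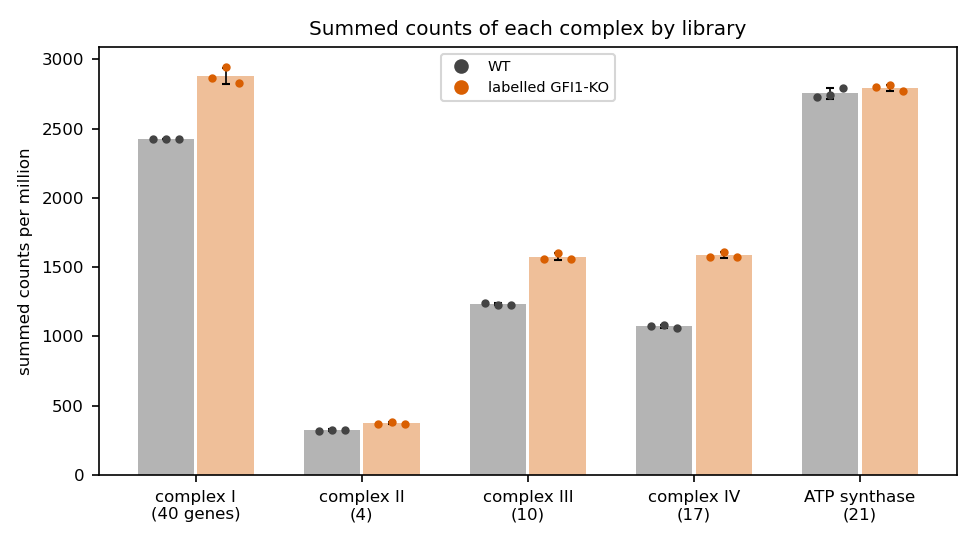
Summed CPM (y axis) of the members of each complex (x axis) in WT and labelled GFI1-KO cells. Bars are means of 3 libraries, error bars their SD and points the libraries; the groups are apart in complexes I to IV and overlap in ATP synthase.

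The 3 largest rises with a mean of at least 100 normalized counts were in small membrane subunits. COX6A1 (ENSG00000111775, chromosome 12, 120438090 to 120440742), the ubiquitous form of subunit 6A of cytochrome c oxidase, had 198, 237 and 112 normalized counts in WT and 1034, 911 and 903 in the labelled GFI1-KO libraries. All 3 WT values, among which replicate 3 was lowest, were far below the others. They gave a log2 fold change 2.38 ± 0.12 (SE), edgeR adjusted p = 1.27e-15, which stayed at 2.10 once GC content and gene length were fitted per library and subtracted (called corrected below).

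NDUFA1 (ENSG00000125356, chromosome X, 119871487 to 119876662), an X-linked subunit needed to assemble the membrane arm of complex I, counted 363, 315 and 335 in WT and 1678, 1669.7 and 1483 in the labelled GFI1-KO libraries. The groups lay wide apart (log2 fold change 2.25 ± 0.06 (SE), edgeR adjusted p = 1.06e-20), and the corrected value was 2.27. COX8A (ENSG00000176340, chromosome 11, 63974607 to 63976543), a very small subunit of complex IV, counted 548, 531 and 580.4 in WT and 2363, 2157 and 2275 in GFI1-KO (log2 fold change 2.03 ± 0.05 (SE), edgeR adjusted p = 7.22e-22), with a corrected value of 1.43. Both COX6A1 and COX8A share more than 10% of their 50-base words with other annotated genes, COX6A1 with a pseudogene and an overlapping locus (17.9%) and COX8A with an overlapping unnamed locus (28.5%), and their counts are uncertain to that extent. NDUFA1 shared none.

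The promoters of these 3 genes are shown with that of COX5B, since they lie upstream of strong rises and hold letters bound by known activators of respiratory genes, and with that of COX6B2, the member that fell most of those averaging 100 or more normalized counts with a RefSeq start within 1000 bases of the deposited gene's start. Each is the 250 bases before the start, read 5′ to 3′ on the gene's strand from RefSeq (GRCh38.p14), with exact matches on either strand to GCGCATGC (nuclear respiratory factor 1, NRF1), CCGGAAG (ETS factors, among them GABP) and AAGATGGC (YY1) in capitals.
COX6A1, chr12:120437863-120438112, plus strand: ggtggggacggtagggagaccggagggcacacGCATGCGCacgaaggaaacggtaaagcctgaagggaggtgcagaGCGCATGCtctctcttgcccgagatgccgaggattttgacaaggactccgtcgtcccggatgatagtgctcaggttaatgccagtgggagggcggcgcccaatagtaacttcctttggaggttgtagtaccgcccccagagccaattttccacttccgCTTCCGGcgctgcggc
COX8A, chr11:63974370-63974619, plus strand: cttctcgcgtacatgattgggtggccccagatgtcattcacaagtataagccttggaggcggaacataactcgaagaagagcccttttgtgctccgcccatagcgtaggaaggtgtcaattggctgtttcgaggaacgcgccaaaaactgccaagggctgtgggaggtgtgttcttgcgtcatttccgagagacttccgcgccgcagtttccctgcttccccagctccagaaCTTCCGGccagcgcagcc
NDUFA1, chrX:119871582-119871831, plus strand: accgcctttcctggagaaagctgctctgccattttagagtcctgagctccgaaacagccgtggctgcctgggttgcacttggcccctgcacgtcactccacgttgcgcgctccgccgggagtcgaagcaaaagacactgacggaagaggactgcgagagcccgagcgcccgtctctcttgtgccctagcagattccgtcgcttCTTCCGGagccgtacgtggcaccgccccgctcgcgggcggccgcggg
COX5B, chr2:97645812-97646061, plus strand: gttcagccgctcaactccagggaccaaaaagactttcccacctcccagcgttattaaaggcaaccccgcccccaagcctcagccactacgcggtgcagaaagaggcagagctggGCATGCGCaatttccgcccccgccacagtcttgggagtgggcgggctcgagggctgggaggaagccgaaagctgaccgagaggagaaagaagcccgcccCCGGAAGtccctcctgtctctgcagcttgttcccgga
COX6B2, chr19:55354720-55354969, minus strand: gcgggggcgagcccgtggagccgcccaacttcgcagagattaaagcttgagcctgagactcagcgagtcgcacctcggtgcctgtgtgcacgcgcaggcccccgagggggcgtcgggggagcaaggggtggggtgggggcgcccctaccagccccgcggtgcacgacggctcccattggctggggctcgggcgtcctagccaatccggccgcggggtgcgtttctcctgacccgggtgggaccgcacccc

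In these windows COX6A1 held NRF1 letters that begin 218 and 174 bases before the start and ETS letters at 16 bases. COX8A and NDUFA1 each held ETS letters, at 18 and 47 bases, COX5B held NRF1 letters at 136 and ETS letters at 37 bases, and the COX6B2 window held none of the 3. Promoters were matched for 71 of the 92 members, in windows of 250 bases before to 50 after the start, 10 of them more than 1000 bases from the start of the deposited gene. GCGCATGC was in 13 of them (18.3%) against 3.27% of all 27305 promoters in the table and 5.42% of those of tested genes. CCGGAAG was in 20 (28.2%) against 10.7% and 18.1%, and AAGATGGC in 11 (15.5%) against 3.03% and 4.99%. The looser letters GCGCNTGC, which include the first motif, were in 26 (36.6%) against 12.2% and 20.3%. AAATCAC, the core to which GFI1 binds, was in 1 member (1.41%) against 3.08% and 1.86%.

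Among members with a matched promoter, GCGCATGC stood in 10 of 42 that were higher, 1 of 13 that were lower and 2 of 12 in neither group. CCGGAAG stood in 13 of 42, 3 of 13 and 4 of 12, and AAGATGGC in 6 of 42, 2 of 13 and 3 of 12. The looser GCGCNTGC stood in 16 of 42, 6 of 13 and 3 of 12, its share being highest among the lower members. Counts this small are a description of these windows, and a match is not a bound site.

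Complex I is built around 7 nucleus-encoded core subunits that carry the flavin and the iron-sulfur clusters. Of these, 4 were higher and 2 lower, against 36.5% and 35.9% of all tested genes. NDUFS7, which holds the last cluster before ubiquinone, counted 308, 301 and 284 in WT and 435, 473 and 452 in GFI1-KO (log2 fold change 0.60 ± 0.08 (SE), edgeR adjusted p = 7.26e-08); 51.4% of its exons lie over antisense loci, so its count is uncertain. NDUFV1, the flavin-bearing subunit that binds NADH, rose by 0.49 ± 0.05 (SE, edgeR adjusted p = 3.32e-10), NDUFS3 by 0.32 ± 0.05 (edgeR adjusted p = 1e-06) and NDUFS8 by 0.31 ± 0.04 (edgeR adjusted p = 3.53e-07), all on the log2 scale. NDUFS1, the largest core subunit, fell from 4157, 4150.1 and 4488 normalized counts in WT to 3243, 3050.4 and 3088 (log2 fold change -0.45 ± 0.04 (SE), edgeR adjusted p = 3.78e-11).

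The calls of NDUFS7, NDUFV1, NDUFS3, NDUFS8 and NDUFS1 depended on GC content and length. After the correction NDUFS7 was at -0.05, NDUFV1 at -0.02 and NDUFS3 at 0.06, none of them past the threshold, and NDUFS8 turned to -0.32 (edgeR adjusted p = 7.92e-07). NDUFS1 went to -0.03 (edgeR adjusted p = 0.469). Of the 4 higher calls in the core 0 remained in edgeR after the correction, with 0 also at an unadjusted p under 0.05, while DESeq2 without the correction gave 4. NDUFV2, another cluster carrier, counted 67.6, 52 and 55.6 in WT and 41.9, 36 and 31.1 in GFI1-KO (log2 fold change -0.69 ± 0.22 (SE), edgeR adjusted p = 0.00676). The NDUFV2 call was kept after the correction, at -0.59. Its counts were low, and 27.0% of its 50-base words are shared with a pseudogene and an overlapping locus, so its level is uncertain.

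The accessory subunits surround this core, and 24 of 32 tested were higher and 4 lower, against 36.5% and 35.9% of all tested genes. NDUFB7, a subunit of the intermembrane-space side, counted 555, 679 and 526 in WT and 1413, 1566 and 1428 in GFI1-KO (log2 fold change 1.33 ± 0.07 (SE), edgeR adjusted p = 1.61e-15), and its corrected value was 0.48. NDUFA3, a small single-helix subunit, counted 207, 231 and 134 in WT against 432, 448 and 543 in GFI1-KO (log2 fold change 1.32 ± 0.12 (SE), edgeR adjusted p = 2.62e-10), and was again lowest in WT replicate 3. By series, 10 of 15 NDUFA genes were higher and 2 lower, and 9 of 11 NDUFB genes were higher and 1 lower. The NDUFS genes had 6 of 8 higher and 1 lower, the NDUFV genes 2 of 3 and 1, and the tested NDUFC genes 1 each way. After the correction the NDUFS genes had 2 higher and 2 lower, and the NDUFV genes 1 and 1. The NDUFA genes then had 10 and 0, and the NDUFB genes 8 and 1.

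In the other direction, NDUFC2, a membrane-arm subunit, counted 770.0, 622 and 802 in WT and 353, 291 and 349 in the labelled GFI1-KO libraries (log2 fold change -1.15 ± 0.09 (SE), edgeR adjusted p = 4.81e-12). It was the largest fall of all tested members and was lower after the correction too (edgeR adjusted p = 2.74e-10). Its neighbour in the complex, NDUFC1, rose by 0.44 ± 0.08 on the log2 scale (SE, edgeR adjusted p = 3.5e-05). NDUFC2 shares 17.6% of its words, mainly with the readthrough gene NDUFC2-KCTD14, which was at 0 counts in all 6 libraries.

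NDUFA5, a matrix-arm subunit, counted 2070.4, 1989 and 1995 in WT and 1204, 1199 and 1207 in GFI1-KO (log2 fold change -0.75 ± 0.04 (SE), edgeR adjusted p = 8.64e-15), with a narrow spread in each group. The correction moved it to -0.05 (edgeR adjusted p = 0.329). Its mRNA has a GC content of 34.6%, and its deposited length is 9851 bases. NDUFA4, counted here with complex I by its symbol but now known as a subunit of complex IV, counted 4065, 4321 and 4231 in WT and 4562, 4642 and 4333 in GFI1-KO, a small difference (log2 fold change 0.10 ± 0.04 (SE), edgeR adjusted p = 0.0125) that was lost without WT replicate 1 (0.07, edgeR adjusted p = 0.125) and without GFI1-KO replicate 2 (0.09, edgeR adjusted p = 0.0616), while after the correction it was 0.50 (edgeR adjusted p = 9.13e-12). With NDUFA4 added, complex IV had 11 of 14 subunits higher.

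Complex II, succinate dehydrogenase, showed small differences. SDHA, its flavoprotein, counted 1619.8, 1645 and 1734 in WT and 2139, 2281 and 2178 in GFI1-KO (log2 fold change 0.40 ± 0.04 (SE), edgeR adjusted p = 2.12e-09), although 24.5% of its words also occur in other genes, among them its pseudogenes. SDHC, a membrane anchor, was at 0.19 ± 0.04 (edgeR adjusted p = 0.000247) and SDHB, the iron-sulfur subunit, at 0.13 ± 0.05 (edgeR adjusted p = 0.016), both log2 fold changes with SE. The SDHB call was lost without WT replicate 2 (0.10, edgeR adjusted p = 0.0891) and without GFI1-KO replicate 2 (0.11, edgeR adjusted p = 0.0686), and DESeq2 gave an adjusted p of 0.0501. SDHD, the other anchor, did not pass the test (0.03, edgeR adjusted p = 0.697) but reached 0.38 (edgeR adjusted p = 1.57e-06) after the correction.

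In complex III, the nucleus-encoded subunits that carry electrons moved in opposite directions. CYC1, cytochrome c1, counted 2949, 3154 and 2901 in WT and 5492, 5611 and 5513 in the labelled GFI1-KO libraries (log2 fold change 0.88 ± 0.04 (SE), edgeR adjusted p = 1.26e-17). UQCRFS1, the Rieske iron-sulfur protein, counted 1998, 2007 and 2107 in WT and 1633, 1619 and 1720.4 in GFI1-KO (log2 fold change -0.30 ± 0.04 (SE), edgeR adjusted p = 3.65e-07). UQCRFS1 shares 15.5% of its words with a pseudogene, so its count is uncertain. The corrected values were 0.23 for CYC1 and -0.10 for UQCRFS1, in the same directions and smaller, and with mRNA length in place of deposited length the UQCRFS1 call was lost (-0.047, edgeR adjusted p = 0.303). The core proteins split as well: UQCRC2 was lower (-0.29 ± 0.04, SE) with edgeR adjusted p = 1.4e-07, and UQCRC1 was slightly higher (0.13), but the correction brought UQCRC2 to 0.02 and UQCRC1 to -0.38.

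Among the small subunits of complex III, UQCRH, the hinge protein that helps dock cytochrome c, was higher in all 3 libraries. It counted 1810.3, 1728 and 1708 in WT and 3508, 3650.3 and 3561 in GFI1-KO, a 2.04-fold rise (log2 fold change 1.03 ± 0.04 (SE), edgeR adjusted p = 1.36e-18). UQCRB, next to the ubiquinone site, rose from 2587, 2477 and 2355 to 4237, 4417 and 4131 (log2 fold change 0.78 ± 0.04 (SE), edgeR adjusted p = 7.27e-16). UQCRQ, with a value of -0.01, and UQCR11, with 0.10, did not pass the test. UQCRHL, an intronless copy of UQCRH, had 45.2 ± 14.7 (SD, n = 3) and 154 ± 7.22 normalized counts. Reads of UQCRH assigned to UQCRHL cannot be told apart from its own. UQCRH shares 13.8% of its words with other genes, among them UQCRHL, so its count is uncertain.

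Complex IV transcripts rose for 9 of the 10 subunits of its ubiquitous form, against 36.5% of all tested genes. COX6B1, on the intermembrane-space side, counted 886, 902 and 647 in WT and 2020.1, 2260.1 and 2182 in GFI1-KO (log2 fold change 1.41 ± 0.07 (SE), edgeR adjusted p = 1.74e-15). COX5A, a matrix-side subunit, counted 1051, 1087 and 870.1 in WT and 2189.7, 2207 and 2267 in GFI1-KO (log2 fold change 1.15 ± 0.05 (SE), edgeR adjusted p = 4.32e-16), and COX5B, which binds zinc, 929.7, 954 and 944 in WT and 1656, 1775 and 1711 in GFI1-KO (log2 fold change 0.86 ± 0.05 (SE), edgeR adjusted p = 4.04e-15). WT and GFI1-KO values did not overlap in any of these, and WT replicate 3 was lowest in COX6B1 and COX5A.

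The remaining ubiquitous subunits moved less. COX4I1, which joins early in assembly, counted 4239, 4277 and 4673 in WT and 4828, 5136 and 4967 in GFI1-KO (log2 fold change 0.18 ± 0.04 (SE), edgeR adjusted p = 0.000139), and its corrected value was 0.03. COX7B was higher by 0.27 ± 0.05 (SE, edgeR adjusted p = 7.31e-05), and by 0.55 after the correction. COX7A2 was the subunit that did not pass, with 2469, 2329 and 2931 in WT and 2384, 2453 and 2329 in GFI1-KO (log2 fold change -0.11 ± 0.05 (SE), edgeR adjusted p = 0.0701), and there WT replicate 3 stood above the rest. Without WT replicate 2 it was called lower (-0.18, edgeR adjusted p = 0.0011), as it was without WT replicate 1 (-0.15, edgeR adjusted p = 0.0439).

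**Figure D3:**
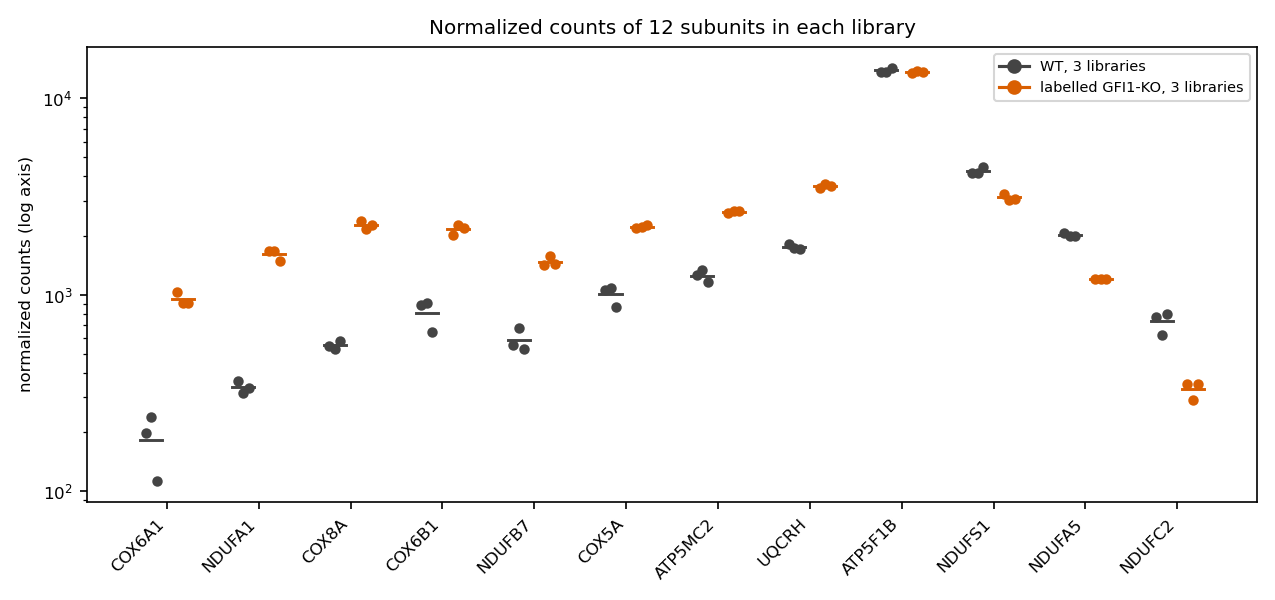
Normalized counts (y axis, log scale) of 12 subunits (x axis) in each of the 3 WT libraries (grey) and 3 labelled GFI1-KO libraries (orange), with horizontal lines at the group means. COX6A1, NDUFA1 and COX8A show the widest gaps, ATP5F1B overlaps between the groups, and NDUFS1, NDUFA5 and NDUFC2 are lower in GFI1-KO.

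Several complex IV subunits have tissue-restricted isoforms. COX4I2 (lung and hypoxia), COX6A2 (heart and muscle) and COX7B2 were at 0 counts in all 6 libraries, and COX8C at 0 to 2, so none of them was tested. COX7A1, the heart and muscle form, counted 8.19, 14.4 and 8.4 in WT and 16.2, 21.8 and 16.9 in GFI1-KO, or 0.410% ± 0.178 and 0.759% ± 0.108 (SD, n = 3) of the counts of COX7A1 and COX7A2 together. Its call (log2 fold change 0.83 ± 0.37 (SE), edgeR adjusted p = 0.0486) was lost without any replicate but WT replicate 2, at edgeR adjusted p from 0.0625 to 0.164. COX6B2, known from testis, was the isoform present at some level, and it fell from 205, 232 and 177 to 116, 147 and 119 (log2 fold change -0.68 ± 0.13 (SE), edgeR adjusted p = 2.47e-05) while COX6B1 rose, and its corrected value was -1.13. Its share of COX6B counts was 20.3% ± 1.39 in WT and 5.57% ± 0.486 in GFI1-KO, with no overlap. COX6B2 shares 26.5% of its words, mainly with a locus that overlaps it.

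NDUFA4L2, the paralog of NDUFA4 known to be induced in hypoxia, counted 108, 89.7 and 91.3 in WT and 141, 154 and 158 in GFI1-KO (log2 fold change 0.65 ± 0.13 (SE), edgeR adjusted p = 9.2e-05), and -0.05 after the correction (edgeR adjusted p = 0.772). It made up 2.24% ± 0.294 and 3.25% ± 0.262 of the counts of the pair.

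In the catalytic head of ATP synthase, 1 of 5 subunits was higher and 2 lower, against 36.5% and 35.9% of all tested genes. ATP5F1B, the catalytic beta subunit and the most abundant member, counted 13701, 13691 and 14335 in WT and 13499.5, 13844 and 13632 in GFI1-KO, and the groups overlapped (log2 fold change -0.03 ± 0.03 (SE), edgeR adjusted p = 0.461). After the correction it was at -0.18 (edgeR adjusted p = 9.54e-06). ATP5F1A, the alpha subunit, counted 10271, 10156 and 11087 in WT and 8198, 7863 and 7863 in GFI1-KO (log2 fold change -0.40 ± 0.04 (SE), edgeR adjusted p = 1.2e-10), with a corrected value of -0.17. Alpha counts per beta count were 0.755 ± 0.0165 (SD, n = 3) in WT libraries and 0.584 ± 0.0206 in those of GFI1-KO. The gamma subunit ATP5F1C was also lower (-0.20), and the delta subunit ATP5F1D higher (0.61), which the correction turned to -0.24.

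The proton-carrying c-ring is made from 3 genes that encode the same mature protein, and all 3 were higher. ATP5MC2 counted 1256, 1331 and 1157 in WT and 2597, 2670.4 and 2678 in GFI1-KO (log2 fold change 1.09 ± 0.04 (SE), edgeR adjusted p = 1.93e-17). ATP5MC3 rose from 2248, 2564 and 2323 to 3711, 3671 and 3441 (log2 fold change 0.60 ± 0.04 (SE), edgeR adjusted p = 1.36e-12), and ATP5MC1 from 937, 798 and 892 to 1301, 1277 and 1276 (log2 fold change 0.55 ± 0.05 (SE), edgeR adjusted p = 8.36e-10). ATP5MC2 took 27.7% ± 1.08 of c-ring counts in WT and 35.1% ± 1.05 in GFI1-KO, and ATP5MC3 52.8% ± 2.03 and 47.8% ± 1.17. Each of the 3 was also higher after the correction, at 0.78, 1.14 and 0.18, although ATP5MC1 was not called when mRNA length took the place of deposited length (edgeR adjusted p = 0.0509).

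ATP5IF1, the inhibitor that blocks ATP hydrolysis by the enzyme, counted 979, 1017 and 852 in WT and 1726, 1719 and 1511 in GFI1-KO (log2 fold change 0.80 ± 0.06 (SE), edgeR adjusted p = 3.04e-12), and 0.61 after the correction. Per ATP5F1B count there were 0.0684 ± 0.00788 (SD, n = 3) ATP5IF1 counts in WT and 0.121 ± 0.00892 in GFI1-KO, again without overlap. In the peripheral stalk 1 of 4 subunits was higher (ATP5PD, 0.56) and 1 lower (ATP5PO, -0.15), but after the correction 3 were higher and ATP5PO was not called (edgeR adjusted p = 0.114), nor was it by DESeq2 (adjusted p = 0.0861). Among the small membrane subunits 2 of 5 tested were higher and 3 lower. There ATP5ME counted 64.5, 67.5 and 38.8 in WT and 179, 118 and 133 in GFI1-KO (log2 fold change 1.33 ± 0.19 (SE), edgeR adjusted p = 4.81e-07), although 61.3% of its exons lie over exons of MYL5 on the other strand, and ATP5MG 600.0, 540.2 and 535 in WT and 386, 403 and 422 in GFI1-KO (log2 fold change -0.47 ± 0.07 (SE), edgeR adjusted p = 1.39e-06), with a corrected value of -0.08. ATP5S, a coupling factor, was lower (log2 fold change -0.70 ± 0.06 (SE), edgeR adjusted p = 1.48e-10), with a corrected value of -0.32. ATP5S shares 38.4% of its words with other genes, and 41.8% of its exons lie over antisense loci, so its count is uncertain. ATP5MGL and the readthrough gene ATP5MF-PTCD1 had 0 to 4 counts per library and were not tested.

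Levels per length spread widely in both groups. As FPKM computed from the counts and the deposited gene lengths, ATP5F1B had the highest mean, 364 in WT and 353 in GFI1-KO, followed in WT by NDUFS5 with 219. Of core subunits that stand in equal number in complex I, NDUFV2 had 1.31 and NDUFS1 21.1 in WT. COX8A had 66.2 in WT and 268 in GFI1-KO, where it came next after NDUFS5 at 289. Deposited lengths merge all exons of a gene, and a long rare exon lowers its FPKM.

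Gene length and GC content moved with these values. The tested members were short, with a median deposited length of 2475 bases against 5399 for nuclear protein-coding genes of at least 100 mean normalized counts, and their median GC content was 47.5% against 48.2%. Across the 85 tested members, Spearman's rho between log2 fold change and deposited length was -0.47. With mRNA length it was -0.60, and with GC content 0.49. These are across genes, which share libraries and are not replicates. Over all tested genes the same rho was -0.17 for deposited length, -0.21 for mRNA length and 0.58 for GC content.

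In length classes chosen after the fold changes were seen, the 9 members of up to 1000 bases had a median log2 fold change of 1.33, and the 61 nuclear protein-coding genes of that length 0.87. From 1000 to 1500 bases the medians were 0.86 for 13 members and 0.51 for 234 genes, and above 8000 bases -0.25 for 9 members and -0.21 for 2695 genes. Below 40% GC the medians were 0.04 for 10 members and -0.49 for 2008 genes, and above 60% they were 0.63 for 8 members and 0.67 for 1740 genes. The part of length and GC content in the members' changes was not tested. After both were fitted per library and subtracted, 50 members were higher and 14 lower (median 0.27), against 32.5% higher and 28.3% lower among all genes. Length was not fully removed among the members: the corrected values kept a rho of -0.28 with deposited length and -0.36 with mRNA length. Corrected medians of members were 0.50 up to 1000 bases and 0.64 from 1000 to 1500. They were 0.22 from 1500 to 2500, 0.0040 from 2500 to 4000, 0.20 from 4000 to 8000 and 0.07 above 8000. By complex, the corrected counts were 22 higher and 5 lower for complex I, 4 and 0 for complex II, 5 and 2 for complex III, 9 and 1 for complex IV, and 10 and 6 for ATP synthase.

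Calls changed with the correction. Of the 55 higher calls 42 were kept and 4 turned into lower calls, and of the 16 lower calls 8 were kept and 1 turned into a higher call. Under all 15 other settings, 48 of the 55 and 14 of the 16 were kept. Of the members, 36 higher and 7 lower kept their call under these 15 settings and 3 corrected fits. Those higher included COX6A1, NDUFA1, COX8A, COX6B1, COX5A, UQCRH, ATP5MC2 and ATP5IF1, and those lower included NDUFC2, COX6B2, ATP5S and ATP5F1A. Of the 7 lower, all but ATP5F1A and ATP5MPL share more than 10% of their words with other genes, so their counts are uncertain. Among the higher members named here, this holds for COX6A1, COX8A and UQCRH.

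Shared sequence bore on 32 of the 92 members, in which more than 10% of the 50-base words of the gene occur in other annotated genes. Without them 39 of 56 tested members were higher and 7 lower, and complex IV had 8 of 10 higher. Among those left out are genes named above without this limit: NDUFS3 (16.6%), NDUFS1 (12.5%), NDUFC1 (24.0%) and SDHC (11.8%). SDHD (13.5%), ATP5PD (17.9%) and ATP5PO (17.3%) are others, and the counts of all of these are uncertain. Named pseudogene rows of the members, 160 rows for 46 members, held between 0.729% and 0.894% as many counts as the members in each library. Most of these counts were in the 3 rows named for SDHA, with 704, 618 and 830 in WT and 936, 837 and 948 in GFI1-KO. The 2 rows named for COX6A1 held 72, 81 and 81 in WT and 119, 133 and 147 in GFI1-KO. For these 2 genes the pooled share understates the copies, and for COX6A1 more so in WT, where its own counts were lower. By chromosome of origin, 60 of the 85 tested members were above the median of nuclear protein-coding genes on their own chromosome, with a median difference of 0.28.

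Lists of other mitochondrial genes had medians nearer to 0 than the members. Among 52 assembly factors, which build the complexes but are not part of them, the median was 0.04, and 44.2% (23) were higher and 28.8% (15) lower, against 36.5% and 35.9% of all tested genes. UQCC3, needed for complex III, was higher (1.43, edgeR adjusted p = 1.45e-10), as was UQCC2 (0.81, edgeR adjusted p = 3.52e-13). NDUFAF4, needed for complex I, fell from 755 ± 65.2 to 332 ± 12.9 normalized counts (SD, n = 3; log2 fold change -1.18 ± 0.07 (SE), edgeR adjusted p = 6.08e-14), and LYRM7, which holds the Rieske protein before its insertion, was at -0.90 (edgeR adjusted p = 4.33e-14). After the correction NDUFAF4 was at -0.70, LYRM7 at -0.30, UQCC3 at 1.07 and UQCC2 at 0.57.

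Of 19 transcriptional regulators of these genes, 6 were higher and 9 lower (median -0.11), and after the correction 3 and 3. EPAS1, which encodes HIF-2alpha, rose from 287 ± 11.4 to 916 ± 74.3 (log2 fold change 1.67 ± 0.07 (SE), edgeR adjusted p = 4.57e-17), and ESRRA, a nuclear receptor that activates respiratory genes, rose (log2 fold change 0.88 ± 0.06 (SE), edgeR adjusted p = 5.79e-13). Its relative ESRRG fell from 941 ± 16.4 to 325 ± 33.6 (log2 fold change -1.53 ± 0.07 (SE), edgeR adjusted p = 1.03e-16), and GABPB1, which pairs with GABPA, was lower (-0.70, edgeR adjusted p = 9.02e-10). The corrected values were 1.57 for EPAS1, 0.17 for ESRRA, -0.96 for ESRRG and -0.16 for GABPB1. NRF1 itself, named after its values were seen because its motif is given above, was at 379 ± 19.3 and 368 ± 23.5 and did not pass the test (log2 fold change -0.04 ± 0.08 (SE), edgeR adjusted p = 0.642).

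All these lists are read against 36.5% higher and 35.9% lower among all tested genes. Of 15 genes of the mobile electron carriers, which are cytochrome c, the electron transfer flavoproteins and the enzymes of coenzyme Q synthesis, 5 were higher and 8 lower. COQ8A had the highest value (0.60, edgeR adjusted p = 1.01e-09), followed by COQ4 (0.43, edgeR adjusted p = 1.56e-06), and PDSS2 (-0.84, edgeR adjusted p = 1.91e-09) and PDSS1 (-0.82, edgeR adjusted p = 3.52e-07), which make the side chain of coenzyme Q, were lower. After the correction COQ8A was at 0.22 and COQ4 at -0.14, on the other side of 0, and with mRNA length COQ4 was called lower (-0.24, edgeR adjusted p = 0.00414). Of 14 enzymes of the TCA cycle, 6 were higher, among them IDH3G (0.52, edgeR adjusted p = 1.85e-09), and 6 lower, led by FH (-0.59, edgeR adjusted p = 6.37e-13) and SUCLA2 (-0.56, edgeR adjusted p = 1.35e-11). After the correction the calls of IDH3G (-0.03, edgeR adjusted p = 0.659) and SUCLA2 (-0.0039, edgeR adjusted p = 0.942) were lost, and FH was at -0.43. Of 19 outer and inner membrane proteins that serve as markers of mitochondrial mass, 8 were higher and 6 lower (median 0.06), and after the correction 7 were higher and 9 lower (median -0.09). SLC25A6 (0.97) and TOMM40 (0.75) were higher, and TOMM70 (-0.61) and TOMM20 (-0.60) lower. Their corrected values were 0.34, 0.08, -0.21 and -0.25, and the TOMM40 call was lost (edgeR adjusted p = 0.12).

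The 13 mitochondrially encoded subunits, the partners of the nuclear ones, were 7 higher and 5 lower in edgeR, and 6 in all were called by DESeq2. MT-ND5 was higher (log2 fold change 1.02 ± 0.05 (SE), edgeR adjusted p = 1.18e-15) and so was MT-ND6 (0.99), while MT-ATP8 was lower (log2 fold change -2.52 ± 0.08 (SE), edgeR adjusted p = 2.25e-19) and so was MT-ND4 (-0.64). Their sum was 19609, 21565 and 15539 CPM in WT and 19607, 19517 and 19259 in GFI1-KO, so WT replicate 3 stood apart from the other WT libraries. Complex IV had 8.64, 9.32 and 7.20 mitochondrially encoded counts for each nuclear count in WT and 6.33, 6.19 and 6.32 in GFI1-KO. These are read counts not scaled by length, so they do not give numbers of transcripts. For complex I the ratio was 3.15, 3.54 and 2.45 in WT and 2.47, 2.39 and 2.42 in GFI1-KO, and the groups overlapped at WT replicate 3. Reads of genes that overlap on the mitochondrial genome, such as MT-ATP8 and MT-ATP6, or on opposite strands, such as MT-ND5 and MT-ND6, cannot be fully told apart.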

How the data were processed

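The authors isolated RNA with TRIzol, selected it on poly-T beads and sequenced it on an Illumina NovaSeq. Their methods name Hisat2 on GRCh38/hg38 and featureCounts, while the submitters' processing notes name Bowtie2, HTSeq and hg38; annotation, strand setting and multimapping rule are not given in the sources used here, so antisense overlaps cannot be told apart. The deposited table holds raw counts per gene for all 6 libraries, with totals of 14882914 to 17692882.

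Counts were tested in edgeR 4.0.16 (R 4.3.3) with TMM factors, filterByExpr and the quasi-likelihood F test between GFI1-KO and WT, with Benjamini-Hochberg adjustment and a threshold of 0.05. The SE is the log2 fold change over the square root of F. Normalized counts are counts over the effective library size, scaled to its mean. GC content and canonical mRNA length came from GENCODE 44, where 58207 of 58735 identifiers matched, and had values for all 85 tested members; the correction fitted splines of GC content and deposited length per library as offsets. Alternatives used DESeq2 1.42.0, limma-voom, other scalings, filters and designs. On simulated data, edgeR and voom kept their false share under the threshold when spread followed the trend over genes but not when each gene kept its own spread, and DESeq2 kept it under in both, so edgeR calls near the threshold are the less certain; the simulation with trended spread was added after the other had been seen.

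The members and lists were chosen with earlier results of these data known. Named genes were core subunits, isoform pairs, ATP5IF1, up to 3 called genes per direction and complex with the largest change and a mean of at least 100 normalized counts, and up to 2 per direction from each other list; all others were named after their values were seen, and 3 genes that the rule or lists would name are not reported here. Members sharing over 10% of their 50-base words with other genes were called uncertain. FPKM were computed from counts, deposited length and total counts. Motifs were searched on both strands of RefSeq promoters.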

Additional observations from a re-analysis of the deposited data

How the results depend on the processing

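Under every alternative but the one without members that share sequence (39 and 7), between 48 and 55 members were higher and between 14 and 19 lower. Leaving out 1 library at a time gave 49 to 53 higher and 14 to 17 lower. With the replicate block, 54 members were higher and 16 lower; the replicate numbers did not pair the samples, since same-numbered libraries deviated together with r from -0.006 to 0.021 and other pairs with r from -0.050 to 0.044 over 11859 genes, and the block moved no count by over 1.5 times.

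The single lower call of complex IV became 2 with no filter, upper-quartile factors, library size alone or nuclear protein-coding genes only, 3 with GC content and mRNA length, 1 to 2 with a library left out and 0 without members that share sequence. Without the latter, an alternative chosen after the data were seen like the mRNA-length correction, complex II had 1 higher, and 7 members in all, 2 of complex I, 1 of complex III and 4 of ATP synthase were lower. Called regulators went from 15 to 6 with GC content and length removed, 5 with the replicate block added and 7 with mRNA length. Called mitochondrially encoded subunits went from 12 to 6 in DESeq2. The cause of these moves was not tested.

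Directions that turned did so under the GC corrections. With GC content and length, with the replicate block added, and with mRNA length, in that order, the values were -0.051, -0.052 and -0.24 for NDUFS7, -0.32, -0.32 and -0.45 for NDUFS8, -0.025, -0.025 and -0.12 for NDUFV1, -0.048, -0.047 and -0.077 for NDUFA4L2, -0.14, -0.14 and -0.24 for COQ4, and -0.027, -0.029 and -0.030 for IDH3G. UQCRC2 was at 0.024 and 0.024 in the first 2 of these, and NDUFS3 at -0.0074 and COX4I1 at -0.11 with mRNA length. With 3 libraries a group, changes near the SE of a member were not detectable. With nuclear protein-coding genes only, no value could be had for mitochondrially encoded subunits.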
